A study of Mus musculus with 7 samples.

Results

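The genes described here are the enzymes of glycolysis, the transporters that move glucose and lactate across the cell membrane, and the genes of the response to low oxygen, measured by RNA-seq in 7 mouse Group 3 medulloblastomas (G3 MBs). Of 43 symbols listed for these roles, 42 matched a gene among the 34592 in the deposited counts, and Mxi1l matched none and was dropped. All 42 passed the filter on low counts that 17389 genes passed. The labels give all 7 tumors the same tumorsphere line, in which granule neuron progenitors of the cerebellum carry a Myc-IRES-GFP retrovirus. Dissociated spheres were infected with lentivirus and transplanted into the cortex of CD1-nu/nu mice, and RNA was taken from chunks of the tumors once the hosts were moribund. In 4 tumors the lentivirus encoded human WDR11 (labelled WDR11OE). The other 3 are controls. These carry the empty vector according to the study's methods and are listed with no treatment in the labels. By the study's methods the donor progenitors lacked Trp53 and Cdkn2c. The labels give the WDR11 and the empty vector the same copGFP lentiviral backbone, and the tissue holds host cells in addition to tumor cells.

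Glycolysis splits glucose into pyruvate in a chain of enzymes from hexokinase to pyruvate kinase, and lactate dehydrogenase turns pyruvate into lactate. Cancer cells are known for running this chain to lactate even where oxygen is present, and Myc is a known activator of many of its genes. The response to low oxygen rests on the hypoxia-inducible factors (HIFs), in which an oxygen-sensitive alpha subunit pairs with ARNT. Prolyl hydroxylases mark the alpha subunit for the VHL ubiquitin ligase when oxygen is present. When oxygen is scarce the pair binds a short DNA core and switches on glycolytic enzymes, the glucose transporter Slc2a1, the angiogenic factor Vegfa and the mitophagy receptor Bnip3, among others. Because HIF alpha is controlled mainly as a protein, levels of its mRNA do not measure HIF activity.

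The libraries held 33417175 to 41397427 counted reads in the controls, and 32116095 to 87141305 where labelled WDR11OE. Levels are given as CPM, counts scaled to the library size with edgeR's TMM factors, and a log2 fold change always compares WDR11OE with control. The counts contain a row for human WDR11, which stood at 2.03, 2.19 and 3.13 CPM in the 3 controls and at 4.38, 2.11, 3.05 and 0.624 CPM in WDR11OE replicates 1 to 4. Its groups overlapped, with a log2 fold change of 0.05 (SE 0.58, adjusted p = 0.961), and WDR11OE replicate 4 held less of it than any control. This row therefore did not separate the groups, and WDR11OE names the label of a tumor throughout, so that every direction given for it rests on the label. The study itself reports raised WDR11 transcript by qRT-PCR in tumors from its WDR11 transplants. It also reports WDR11 protein by immunofluorescence in tumorspheres grown from such tumors. The transplanted cells were not sorted for infection. Whether the tumors sequenced here were among the tumors measured in these ways is not given in the sources used here. Myc, the oncogene of the model, did separate the groups, at 1109, 821 and 812 CPM in the controls and at 389.8, 431, 278 and 289 CPM in WDR11OE, a log2 fold change of −1.398 (SE 0.20, adjusted p = 0.00227). The counts do not tell retroviral from endogenous Myc, and the part of Myc in the levels of glycolytic genes was not tested. Mouse Wdr11 was 58.8 ± 0.464 CPM (SD, n = 3) in the controls and 65.6 ± 3.36 CPM (SD, n = 4) in the tumors labelled WDR11OE, a log2 fold change of 0.16 (SE 0.06, adjusted p = 0.0910). The names of the libraries follow a different style and number series in each group. Whether the groups were prepared or sequenced apart is not given in the sources used here, and such a difference and the condition cannot be told apart. Nothing in the sources used here ties the tumors to separate cultures, although each is a transplanted tumor, and p-values measure the spread between these tumors. Atoh1, which defines granule neuron progenitors, was at 0 in all 7 tumors, so the cells cannot be recognised by that gene here. Of the other genes listed for this lineage, Barhl1 was at 0 in 6 tumors and Neurod1 ran from 0.0237 to 2.54 CPM. Pax6 ran from 17.2 to 31.2 CPM, Zic1 from 1.76 to 16.8 CPM and Zic2 from 2.57 to 7.33 CPM over the 7 tumors.

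Few glycolysis and hypoxia genes differed between the groups beyond the spread between tumors. Of the 42 members, 4 were higher (9.52%) and 2 were lower (4.76%) in WDR11OE at an adjusted p under 0.05 from edgeR's quasi-likelihood test, against 18.1% and 15.8% of all genes tested, or 33.9% in either direction. The 4 that rose were Pfkp, Ldhb, Hif1a and Vhl, and the 2 that fell were Arnt and Epas1. These 6 were also the only members whose groups did not overlap, against 23.5% of all genes not overlapping upward and 19.1% downward. Only Epas1 passed a 2-fold change as well, which 5.55% of all genes did, 3.36% downward and 2.19% upward. The log2 fold change was positive for 27 members and negative for 15, with a median of 0.21, while the median of all genes tested was 0.08. The median of the members moved with single tumors. Without WDR11OE replicate 2 it was 0.02, below the 0.05 of all genes, without replicate 1 it was 0.10 and with both summed 0.07. Without control replicate 2 or 3 it was 0.14 and 0.12. It was 0.29 without WDR11OE replicate 3, 0.29 without control replicate 1 and 0.26 without WDR11OE replicate 4. Of the 6 called members, 4 belong to the HIF machinery, namely all 3 HIF subunits and Vhl, whereas 1 of the 13 enzymes from hexokinase to pyruvate kinase and none of the 13 HIF targets passed.

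**Figure D1:**
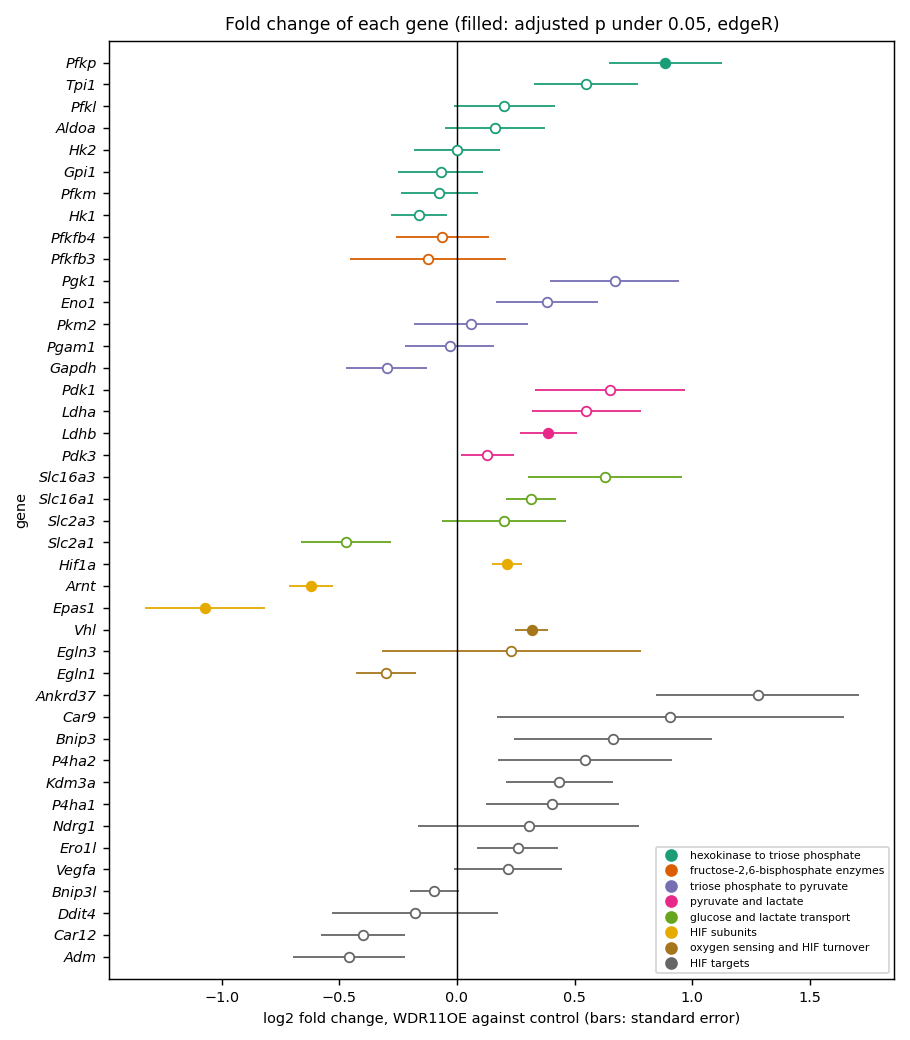
Log2 fold change of WDR11OE against control (horizontal axis) for each of the 42 members, coloured by role, with bars of 1 standard error to each side and filled points for an adjusted p under 0.05. Arnt at −0.62 and Epas1 at −1.07 are the filled points left of 0, Pfkp at 0.89 is the filled point farthest right, and the open point of Ankrd37 lies at 1.28.

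The 3 HIF subunit genes moved in different directions. Arnt encodes HIF-1 beta, the shared partner of the alpha subunits (ENSMUSG00000015522, NCBIM37 chromosome 3, 95238310 to 95301162, plus strand). It was at 67.8, 61.3 and 70.5 CPM in the controls and at 39.6, 39.9, 48.6 and 44.9 CPM in WDR11OE replicates 1 to 4. Every WDR11OE tumor was below every control, and the log2 fold change was −0.62 (SE 0.09, adjusted p = 0.00308). Epas1 encodes HIF-2 alpha, which is abundant in endothelium among other cells (ENSMUSG00000024140, chromosome 17, 87153247 to 87232750, plus strand). It stood at 21.6, 26.5 and 20.6 CPM in the controls and at 9.21, 7.20, 15.5 and 11.7 CPM in WDR11OE. These groups did not overlap either, and the log2 fold change was −1.07 (SE 0.26, adjusted p = 0.0167), although without control replicate 2 the call was lost at an adjusted p of 0.0640. Beside Epas1, the summed level of 7 endothelial markers was 97.3, 134 and 122 CPM in the controls and between 80.3 and 91.8 CPM in WDR11OE. Of these 7, 2 were lower (28.6%, against 15.8% of all genes) and none higher. The lower ones were Cdh5, with a log2 fold change of −1.02, and Esam, with −0.55. Tie1 had −0.77, Kdr −0.40 and Cldn5 −0.23, whereas Pecam1 and Tek had 0.12 and 0.02. Within WDR11OE the marker sum was highest in replicate 1, where Epas1 was at 9.21 CPM, while Epas1 was highest in replicate 3, where the sum was 81.9 CPM. Their part in the lower Epas1 was not tested, and in bulk tissue fewer cells of a type and less RNA per cell cannot be told apart.

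Hif1a encodes HIF-1 alpha, the main driver of the acute response (ENSMUSG00000021109, chromosome 12, 75002362 to 75048517, plus strand). It was at 92.7, 95.4 and 99.9 CPM in the controls and at 118, 112, 110.2 and 104 CPM in WDR11OE. The groups were separate but close, and the log2 fold change of 0.21 (SE 0.07, adjusted p = 0.0419) was among the smallest of the calls. Hif1a has the opposite sign once the trend of fold change with GC content is removed, at −0.18 (adjusted p = 0.153). Its call was also lost in 12 of the 16 other alternatives, among them leaving out any tumor but WDR11OE replicate 4, at adjusted p-values of up to 0.348. The log2 ratio of Epas1 to Hif1a, which sets both alpha subunits against each other within a tumor, was −2.08 ± 0.217 in the controls and −3.40 ± 0.509 in WDR11OE (SD, n = 3 and 4). The difference of −1.33 had an exact permutation p of 0.0571, where the smallest p that 35 splits allow is 0.0286, and a Benjamini-Hochberg value of 0.343 over 12 such ratios. With the GC trend removed the difference was −0.83, with an exact permutation p of 0.114.

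Of the 3 genes that sense oxygen or turn HIF over, only Vhl passed the test. Vhl encodes the part of the ubiquitin ligase that recognises hydroxylated HIF alpha (ENSMUSG00000033933, chromosome 6, 113573953 to 113581627, plus strand). It was at 26.1, 27.1 and 27.6 CPM in the controls and at 34.6, 35.3, 31.4 and 33.0 CPM in WDR11OE. All WDR11OE tumors were above all controls, with a log2 fold change of 0.32 (SE 0.07, adjusted p = 0.0135), and the call was lost without WDR11OE replicate 1 or 2 and with both summed, at adjusted p-values between 0.132 and 0.136, and with no filter at 0.0921. Egln1, the main HIF prolyl hydroxylase, had a log2 fold change of −0.30 (SE 0.13, adjusted p = 0.109). Egln3, a prolyl hydroxylase that is itself a HIF target, was chosen for display after its values were seen. It stood at 17.98, 11.4 and 6.87 CPM in the controls and at 18.4, 23.8, 9.34 and 5.09 CPM in WDR11OE. The spread of Egln3 among WDR11OE tumors was 4.67-fold, which is far larger than its difference between the groups (log2 fold change 0.23, SE 0.55, adjusted p = 0.785).

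**Figure D2:**
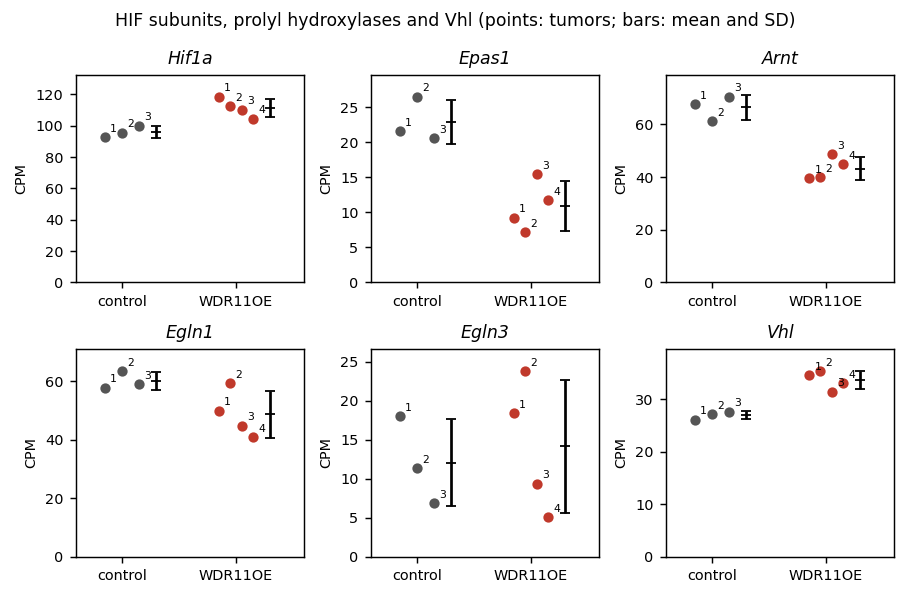
CPM (vertical axes) of the HIF subunit genes Hif1a, Epas1 and Arnt, the prolyl hydroxylases Egln1 and Egln3, and Vhl, with 1 numbered point per tumor for 3 controls (grey) and 4 WDR11OE tumors (red), and bars for the mean and SD. Arnt and Epas1 are lower and Hif1a and Vhl higher in every WDR11OE tumor than in every control, while Egln3 spreads from 5.09 to 23.8 CPM within WDR11OE.

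In the upper part of glycolysis, which spends ATP to make triose phosphates, 1 of 8 enzymes passed the test. Pfkp encodes the platelet isoform of phosphofructokinase, the enzyme of the committed step (ENSMUSG00000021196, chromosome 13, 6579014 to 6648023, minus strand). It was at 61.5, 42.8 and 34.0 CPM in the controls and at 73.5, 87.4, 68.6 and 111 CPM in WDR11OE. The lowest WDR11OE tumor was above the highest control, and the log2 fold change was 0.89 (SE 0.24, adjusted p = 0.0272). The Pfkp call was lost without control replicate 2, control replicate 3 or WDR11OE replicate 2, at adjusted p-values between 0.0606 and 0.0937. The other phosphofructokinase isoforms did not pass, with log2 fold changes of 0.20 for the liver form Pfkl (SE 0.21) and −0.08 for the muscle form Pfkm (SE 0.16). The log2 ratio of Pfkp to Pfkl was −1.73 ± 0.381 in the controls and −0.99 ± 0.608 in WDR11OE, a difference of 0.75 with an exact permutation p of 0.114.

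The hexokinases, which trap glucose in the cell, did not pass. Hk2, the isoform that tumors often induce, had a log2 fold change of 0.00 (SE 0.18), and its levels lay between 266 and 375 CPM in the controls and between 234 and 373 CPM in WDR11OE. Hk1, the housekeeping isoform, had −0.16 (SE 0.12). Gpi1, glucose-6-phosphate isomerase, had −0.07, Aldoa, the main aldolase, had 0.16, and Tpi1, triose phosphate isomerase, had 0.55 with an adjusted p of 0.0973. Pfkfb3 and Pfkfb4 set the level of fructose-2,6-bisphosphate, the activator of phosphofructokinase, and their log2 fold changes were −0.12 and −0.06.

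Among the 5 enzymes from triose phosphate to pyruvate, none passed the test by edgeR, limma-voom or DESeq2, and 1 was higher and 0 lower at an unadjusted edgeR p under 0.05. Gapdh, which makes 1,3-bisphosphoglycerate and often serves as a reference gene, was at 372, 288 and 457 CPM in the controls and at 320.2, 351, 275 and 265 CPM in WDR11OE. The groups overlapped, and the log2 fold change was −0.30 (SE 0.17, adjusted p = 0.230). Pgk1, phosphoglycerate kinase, had a log2 fold change of 0.67 (SE 0.27, adjusted p = 0.0999), Pgam1, phosphoglycerate mutase, had −0.03, and Eno1, enolase, had 0.38. Pkm2, under which the counts give the pyruvate kinase gene of muscle and tumors, had 0.06 (SE 0.24) and does not tell the M1 and M2 splice forms apart. Per length of its exons, Pkm2 was the highest member in the controls at 591 RPKM, ahead of Ldha at 225 RPKM and Gapdh at 165 RPKM, while Car9 was the lowest at 0.270 RPKM. Gapdh, Ldha, Pkm2 and other glycolytic genes have processed pseudogenes in the mouse genome, to which the counting could have moved some of their reads.

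At the end of the pathway, the 2 lactate dehydrogenase genes differed in which tumors were high. Ldha, the form that favours lactate production and a known target of both Myc and HIF-1, was at 699, 591 and 726 CPM in the controls and at 1129, 1304, 811 and 690.2 CPM in WDR11OE. WDR11OE replicate 4 lay within the control range and replicates 1 to 3 lay above it, so that the log2 fold change of 0.55 (SE 0.23) did not pass, with an adjusted p of 0.108. Ldhb, the form of oxidative tissues (ENSMUSG00000030246, chromosome 6, 142438769 to 142456477, minus strand), stood at 53.9, 49.7 and 57.7 CPM in the controls and at 62.1, 66.2, 67.5 and 85.7 CPM in WDR11OE. Here replicate 4 was the highest tumor, the groups did not overlap, and the log2 fold change was 0.39 (SE 0.12, adjusted p = 0.0445). The Ldhb call was lost in 10 of 17 alternatives, among them leaving out any control or WDR11OE replicate 2 or 3, at adjusted p-values of up to 0.215. Pdk1 and Pdk3, kinases that block the entry of pyruvate into mitochondria, had log2 fold changes of 0.65 (SE 0.32) and 0.13 (SE 0.11) and did not pass.

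None of the 4 transporters passed by edgeR, limma-voom or DESeq2, while 1 was higher and 1 lower at an unadjusted edgeR p under 0.05. Slc2a1, the basal glucose transporter GLUT1 and a HIF target, had a log2 fold change of −0.47 (SE 0.19, adjusted p = 0.100), and Slc2a3, the neuronal glucose transporter GLUT3, had 0.20 (SE 0.26). The log2 ratio of Slc2a3 to Slc2a1 was −0.75 ± 0.288 in the controls and −0.04 ± 0.528 in WDR11OE, a difference of 0.70 with an exact permutation p of 0.0857. The highest value, 0.73, was that of WDR11OE replicate 4, and the other 6 tumors lay between −1.04 and −0.17. Slc16a1, the lactate transporter MCT1, had a log2 fold change of 0.31 (SE 0.11, adjusted p = 0.0584), and Slc16a3, the lactate exporter MCT4, had 0.63 (SE 0.33, adjusted p = 0.184).

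The 13 HIF targets had no call by edgeR or limma-voom, with a median log2 fold change of 0.31, and 1 of them was higher and 0 lower at an unadjusted edgeR p under 0.05. DESeq2 called 1 higher and 1 lower. The median of the HIF targets was 0.07 without WDR11OE replicate 2, 0.17 with replicates 1 and 2 summed, 0.51 without replicate 4 and 0.57 without control replicate 1. Ankrd37, an ankyrin repeat gene and a direct HIF-1 target, had the largest fold change of the 42 members and was chosen for display after its values were seen. It was at 9.87, 6.53 and 5.98 CPM in the controls and at 21.9, 28.7, 13.4 and 8.37 CPM in WDR11OE. WDR11OE replicate 4 fell between the controls, and the log2 fold change of 1.28 (SE 0.43) had an adjusted p of 0.0560, which DESeq2 put at 0.0121. The mitophagy receptor Bnip3 had a log2 fold change of 0.66 (SE 0.42) and its relative Bnip3l −0.10 (SE 0.10). The pH regulator Car9 had 0.91 (SE 0.74) on levels of 0.230 to 2.35 CPM, the lowest among members, and Car12 had −0.40 (SE 0.18). The collagen prolyl hydroxylases P4ha2 and P4ha1 had 0.54 and 0.41, the histone demethylase Kdm3a had 0.43, and the angiogenic factor Vegfa had 0.22. The stress gene Ndrg1 had 0.31, the disulfide oxidase Ero1l had 0.26, the mTOR inhibitor Ddit4 had −0.18 and the peptide hormone Adm had −0.46.

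The DNA core to which HIF binds was looked for in the RefSeq promoter windows of GRCm38.p6, which reach from 250 bases before a gene's start to 50 after it. The letters searched were ACGTG and GCGTG on both strands, and matches may overlap. A window was matched for 38 of the 42 members, with 53 windows in all, and not for Slc2a3, Ndrg1, Epas1 and Bnip3l. The core was in 41 of the 53 member windows (77.4%) and in 14380 of 32851 windows of all genes (43.8%), and 34 of the 38 members held it in at least 1 window. Many members were listed because they are known HIF targets, so their higher share cannot be read as a result about these tumors. Windows were not matched for base content, and no share per gene was counted over all genes. A match is a run of letters and was not measured as a bound site. The 250 bases before the start are shown for Ankrd37 and Bnip3, Pgk1 and Ldha, whose levels share the same order among WDR11OE tumors described further on, and for Ldhb, which has another order. They are written 5′ to 3′ on the strand of the gene, with every core match in capitals. These windows are on chr8:45999851-46000100 (minus) for Ankrd37, chr7:138909507-138909756 (minus) for Bnip3, chrX:106186850-106187099 (plus) for Pgk1, chr7:46845554-46845803 (plus, the first of 2 windows) for Ldha and chr6:142507958-142508207 (minus) for Ldhb.
Ankrd37: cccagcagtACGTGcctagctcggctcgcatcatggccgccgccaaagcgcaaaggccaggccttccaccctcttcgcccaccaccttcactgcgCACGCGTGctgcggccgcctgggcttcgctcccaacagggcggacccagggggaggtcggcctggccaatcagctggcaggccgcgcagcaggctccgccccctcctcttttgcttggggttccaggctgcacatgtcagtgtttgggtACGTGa
Bnip3: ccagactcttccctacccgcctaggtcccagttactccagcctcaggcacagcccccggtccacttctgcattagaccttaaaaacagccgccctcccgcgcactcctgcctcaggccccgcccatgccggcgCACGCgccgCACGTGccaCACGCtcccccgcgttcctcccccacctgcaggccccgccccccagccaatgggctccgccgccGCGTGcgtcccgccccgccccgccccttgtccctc
Pgk1: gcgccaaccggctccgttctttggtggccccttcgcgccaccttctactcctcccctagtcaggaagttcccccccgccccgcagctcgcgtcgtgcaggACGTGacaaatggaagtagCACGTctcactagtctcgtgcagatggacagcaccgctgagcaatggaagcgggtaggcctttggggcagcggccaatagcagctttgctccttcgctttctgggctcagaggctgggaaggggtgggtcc
Ldha: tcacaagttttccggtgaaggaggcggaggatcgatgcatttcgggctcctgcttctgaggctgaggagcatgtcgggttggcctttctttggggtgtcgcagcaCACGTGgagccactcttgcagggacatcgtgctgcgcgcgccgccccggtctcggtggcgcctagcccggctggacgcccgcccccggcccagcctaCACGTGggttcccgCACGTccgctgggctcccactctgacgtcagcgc
Ldhb: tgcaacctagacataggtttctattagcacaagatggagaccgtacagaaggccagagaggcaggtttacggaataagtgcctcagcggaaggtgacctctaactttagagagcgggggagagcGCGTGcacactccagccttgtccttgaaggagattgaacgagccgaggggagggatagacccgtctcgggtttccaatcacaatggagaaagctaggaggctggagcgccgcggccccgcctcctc
In these 250 bases the core was matched 4 times for Ankrd37, 5 for Bnip3, 2 for Pgk1, 5 for Ldha and 1 for Ldhb. These 5 genes were picked for display, and a link between the core and the order of tumors was not tested. Tpi1 has the same order as Ankrd37 but no core in its window. Of the members highest in WDR11OE replicate 4 besides Ldhb, Hk1, Pfkm, Pfkp and Pfkfb4 hold the core in at least 1 window. Car12 does not, and Slc2a3 had no window. The sequences of Ankrd37, Bnip3, Pgk1 and Ldha hold the core in both orientations. In Bnip3 and Ldha, matches on the 2 strands overlap in CACGTG, which is also the E-box that Myc is known to bind.

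Most members followed a common order among the tumors labelled WDR11OE. Replicates 1 and 2, whose library titles share a number, were both above replicates 3 and 4 in 33 of the 42 members (78.6%) and in 29.9% of all genes tested. The full order, with replicate 2 highest, then 1, then 3, then 4, was found in 26 members (61.9%) and in 11.2% of all genes. Replicate 2 was the highest WDR11OE tumor for 30 members and replicate 4 the lowest for 28, including all 5 enzymes from Gapdh to Pkm2 and 10 of the 13 HIF targets. The members with the highest level in replicate 4 instead were Hk1, Pfkm, Pfkp, Pfkfb4, Ldhb, Slc2a3 and Car12. The order was chosen after the values were seen, and these shares describe 4 tumors, in which genes are not independent of each other.

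**Figure D3:**
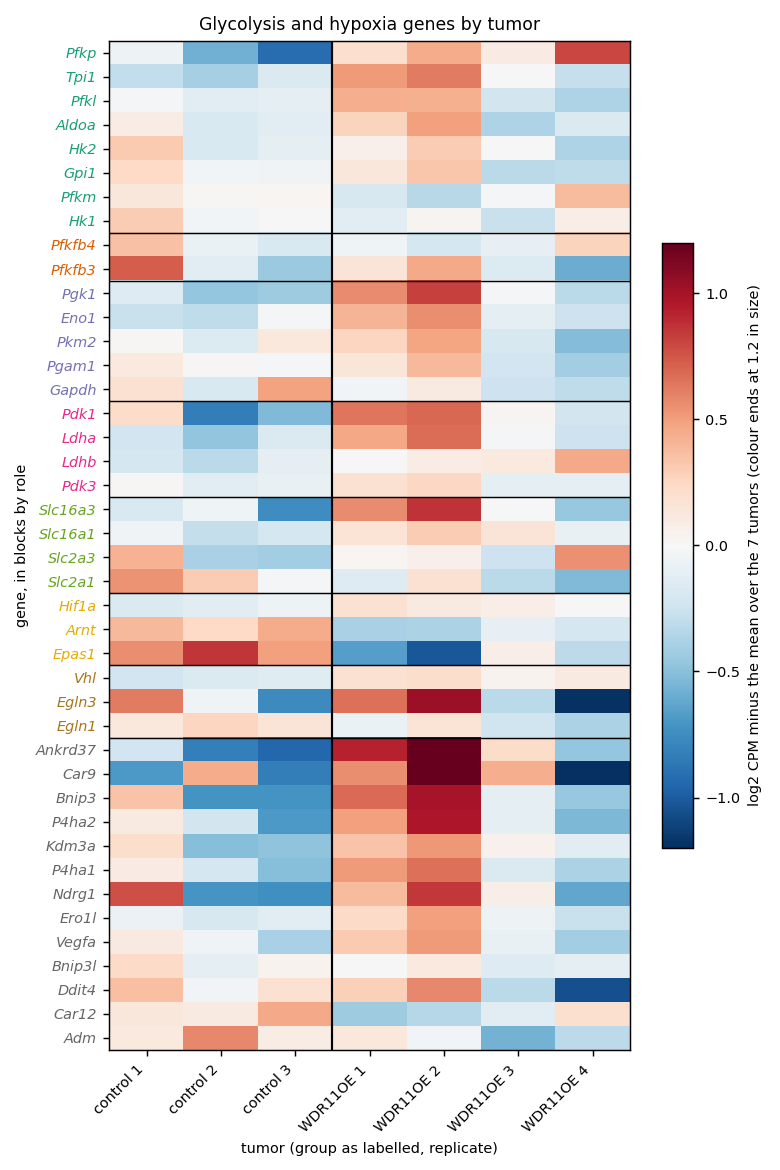
Log2 CPM of each of the 42 members minus its mean over the 7 tumors (colour, with the scale ending at 1.2 to each side), with genes in rows by role and tumors in columns by group. The columns of WDR11OE replicates 1 and 2 are high for most members and that of replicate 4 is low, while Arnt and Epas1 are high in the 3 controls.

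The highest WDR11OE tumor exceeded the lowest by a median factor of 1.73 over the members and 1.35 over all genes tested, whereas among the controls these factors were 1.28 and 1.33. Car9 spread 10.2-fold within WDR11OE and 2.57-fold within the controls, Egln3 4.67-fold and 2.62-fold, and Ankrd37 3.43-fold and 1.65-fold. Ddit4 spread 3.11-fold and 1.31-fold, P4ha2 2.85-fold and 1.75-fold, and Bnip3 2.73-fold and 2.09-fold. Ndrg1 spread as widely in the controls, at 2.85-fold, as in WDR11OE, at 2.78-fold. In the controls, replicate 1 was the highest for 27 of the 42 members (64.3%), against 36.0% of all genes. The summed level of the 13 enzymes was 4643, 4014 and 4652 CPM in the controls and 5593, 6359, 4114 and 3706 CPM in WDR11OE. The summed level of the 13 HIF targets was 999.5, 724 and 686 CPM in the controls and 1117, 1314, 802 and 665 CPM in WDR11OE. In both sums WDR11OE replicates 1 and 2 were above every control, and replicate 4 was below every control.

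**Figure D4:**
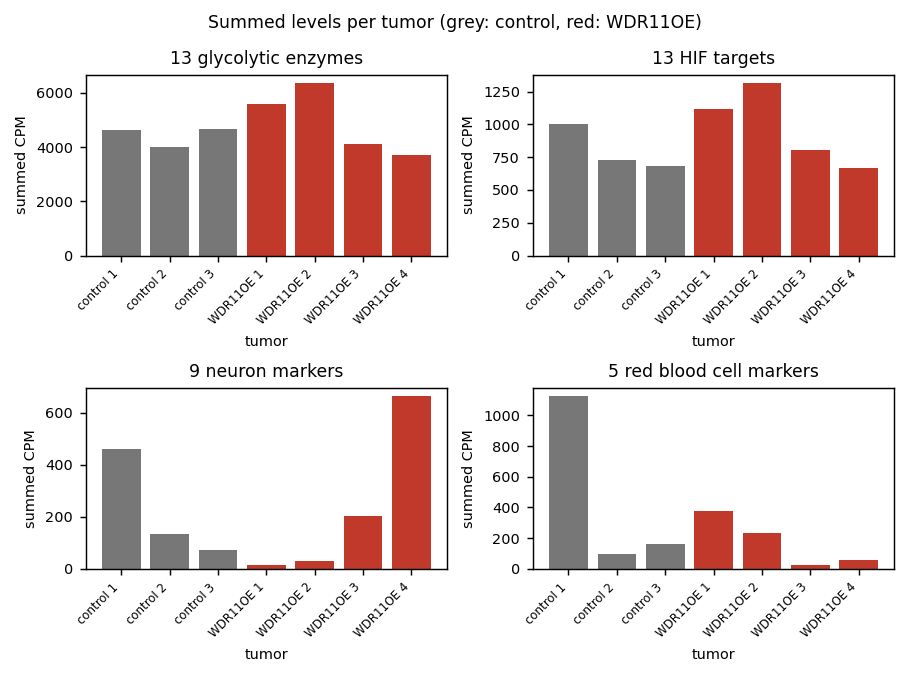
Summed CPM (vertical axes, bars from 0) of the 13 enzymes, the 13 HIF targets, 9 neuron markers and 5 red blood cell markers in each tumor, with controls in grey and WDR11OE in red. Enzymes and HIF targets are highest in WDR11OE replicate 2, at 6359 and 1314 CPM, and lowest in replicate 4, at 3706 and 665 CPM, where neuron markers are highest at 664 CPM.

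Markers of other cells varied between the same tumors. The summed level of 9 neuron markers was 461, 136 and 72.1 CPM in the controls and 12.95, 29.4, 202 and 664 CPM in WDR11OE replicates 1 to 4. Within WDR11OE it was low in the tumors with high glycolytic genes and highest in replicate 4. The controls did not show this, since control replicate 1 had the highest neuron sum and also the highest HIF target sum, 999.5 CPM. Its enzyme sum, 4643 CPM, was close to the 4652 CPM of control replicate 3, where the neuron sum was lowest. None of the 9 was called between the groups. The sum of 6 astrocyte markers ran from 414 to 631 CPM in the controls and from 246 to 788 CPM in WDR11OE, again highest in replicate 4. Of these 6, 1 was higher (16.7%, near the 18.1% of all genes). The 5 red blood cell genes summed to 1123, 99.0 and 164 CPM in the controls and to 378, 231, 23.6 and 55.3 CPM in WDR11OE, with none called. Oligodendrocyte markers ran from 108 to 314 CPM in the controls and from 87.9 to 327 CPM in WDR11OE, and markers of microglia and macrophages from 72.1 to 208 CPM and from 78.2 to 196 CPM, with no call among the 6 and 7 genes. The part of these cells in the order of the tumors was not tested.

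Leaving out single tumors changed which members were called. It also changed the calls over all genes. These ran from 1560 higher and 2011 lower of 17114 without WDR11OE replicate 1 to 2986 and 2868 of 16953 without WDR11OE replicate 4. Without WDR11OE replicate 4, 10 members were higher, which adds Tpi1 (0.69), Pgk1 (0.83), Ldha (0.69), Slc16a1, Slc16a3 and Ankrd37 to the 4 named, and Car12 joined the lower ones. Without WDR11OE replicate 2, none was higher by edgeR, 2 were higher at an unadjusted p under 0.05, and 4 were lower, namely Slc2a1, Egln1, Arnt and Epas1. Of all 17179 genes in that fit, 1657 were higher and 2196 lower. Without control replicate 1, the count of 4 higher and 2 lower was the same, but Pdk1 (adjusted p = 0.0484) and Kdm3a (adjusted p = 0.0370) took the place of Hif1a and Ldhb. Without control replicate 2, 1 was higher and 1 lower, beside 2045 and 2168 of all 17696 genes. Without control replicate 3, 1 was higher, and without WDR11OE replicate 1 or 3, 2 were, each with Arnt and Epas1 lower. Arnt was lower in every one of the 17 alternatives, with log2 fold changes between −0.88 and −0.49.

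Pairs of genes with related roles were compared within each tumor as 12 ratios, and none differed between the groups at an exact permutation p under 0.05. Besides the 3 given above, the log2 ratio of Ldhb to Ldha differed by −0.13 (p = 0.886 by exact permutation) and ranged within WDR11OE from −4.30 in replicate 2 to −3.01 in replicate 4, with controls between −3.69 and −3.57. Pfkm to Pfkl behaved alike, with −1.50 ± 0.0122 in the controls and −1.76 ± 0.708 in WDR11OE (SD, n = 3 and 4). Bnip3l to Bnip3 was lower by 0.73 on average in WDR11OE and Pdk3 to Pdk1 by 0.55, both with an exact permutation p of 0.143. The ratios of Hk2 to Hk1, Pfkfb4 to Pfkfb3, Slc16a3 to Slc16a1, Egln3 to Egln1 and P4ha2 to P4ha1 had exact permutation p-values of 0.457 or above.

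Other genes of the same pathways were taken from a list of 97 genes, of which 89 were tested. Among these, 22 were higher (24.7%, against 18.1% of all genes) and 15 lower (16.9%, against 15.8%), with a median log2 fold change of 0.12. Of 13 genes that control HIF, 2 were higher (15.4%, against 18.1% of all genes) and 5 lower (38.5%, against 15.8%). Those higher were 0 by edgeR without control replicate 2 or WDR11OE replicate 1 or 2 (at least 1 at an unadjusted p under 0.05). Those lower were 3 with the GC trend removed and without WDR11OE replicate 1 or 2. Crebbp and Ep300, the histone acetyltransferases that HIF recruits, were among the lower ones. Crebbp was at 222, 214 and 209.7 CPM in the controls and at 69.2, 77.5, 112 and 103 CPM in WDR11OE, a log2 fold change of −1.25 (SE 0.17, adjusted p = 0.00187). Ep300 was at 169, 153 and 154 CPM in the controls and at 61.4, 63.7, 95.1 and 72.5 CPM in WDR11OE, a log2 fold change of −1.12 (SE 0.15, adjusted p = 0.00205). Both were well below every control in every WDR11OE tumor. Hif3a, an alpha subunit that can restrain the others, was at 2.28, 5.84 and 2.11 CPM in the controls and between 0.811 and 1.32 CPM in WDR11OE, a log2 fold change of −1.81 (SE 0.41, adjusted p = 0.0140). Of 31 other HIF targets, 4 were higher (12.9%, against 18.1% of all genes) and 7 lower (22.6%, against 15.8%). Zfp395 had a log2 fold change of −1.39. The balance of this list was not stable, at 6 higher and 3 lower without control replicate 1, 9 higher and 6 lower without WDR11OE replicate 4, and 1 higher and 6 lower with the GC trend removed. Without control replicate 2 it was 2 and 4, and 2 higher were left without control replicate 3 or WDR11OE replicate 1 or 2.

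The genes of pyruvate entry to mitochondria comprise the subunits of the mitochondrial pyruvate carrier and of pyruvate dehydrogenase, kinases and phosphatases that switch the latter off and on, and pyruvate carboxylase. Of these 12 genes, 7 were higher (58.3%) and 1 lower (8.33%), beside 18.1% and 15.8% of all genes. Only 3 were higher, and 2 lower, once the GC trend was removed, and 4 were higher without WDR11OE replicate 2. Chosen after their values were seen, Brp44l, a subunit of the mitochondrial pyruvate carrier, was at 20.3, 15.2 and 16.3 CPM in the controls and at 32.04, 35.2, 32.3 and 36.7 CPM in WDR11OE, a log2 fold change of 0.98 (SE 0.12, adjusted p = 0.00151). Pdk2, a kinase that switches pyruvate dehydrogenase off, was the lower one, at 18.1, 12.6 and 15.998 CPM in the controls and at 3.86, 3.56, 6.16 and 5.98 CPM in WDR11OE (log2 fold change −1.67, SE 0.25, adjusted p = 0.00285). In glycogen metabolism 4 of 11 genes were higher (36.4%, against 18.1% of all genes) and 1 lower (9.09%, against 15.8%). Ppp1r3c, a glycogen-targeting subunit of protein phosphatase, rose by 1.03 on the log2 scale. Only 2 glycogen genes were higher without WDR11OE replicate 1 or with replicates 1 and 2 summed. In the pentose phosphate pathway 2 of 8 were higher (25.0%) and 1 lower (12.5%), and by edgeR none was left in either direction without WDR11OE replicate 1, without replicate 2 or with both summed, although at an unadjusted p under 0.05 at least 1 was higher and 1 lower in each of these.

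The list of other glycolytic isoforms, which also held the transporters Slc2a4 and Slc16a7, had 3 of 14 higher (21.4%, near the 18.1% of all genes). None was lower (against 15.8% of all genes). Among the 3 was Pgam5 (log2 fold change 0.32, SE 0.10, adjusted p = 0.0482), a protein phosphatase by function and not a glycolytic enzyme. Of those higher, Eno3 and Pgam2 are the isoforms of skeletal muscle, as is Pygm among the glycogen genes. Their log2 fold changes were 1.02 for Eno3 (SE 0.21), 3.68 for Pgam2 (SE 0.64) and 1.56 for Pygm (SE 0.45), and Pgam2 was at or below 0.123 CPM in each control. The Pygm call was lost without control replicate 2 or 3 or WDR11OE replicate 1 or 3, with WDR11OE replicates 1 and 2 summed and with limma-voom, at adjusted p-values between 0.0519 and 0.0831. A list of skeletal muscle markers moved with them, with 12 of 13 tested genes higher (92.3%, against 18.1% of all genes). The summed levels of these markers were 9.93 to 17.01 CPM in the controls and 72.2 to 189 CPM in WDR11OE. Mb was at 0 in all controls. The part of muscle RNA in these isoforms was not tested.

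The fold changes of all genes followed the GC content of their exons. In 5 equal bins of all genes from low to high GC, the median log2 fold change was 0.41, 0.21, 0.04, −0.06 and −0.21. The members in the same bins had medians of 0.24, 0.43, 0.23, −0.02 and 0.11, over 6, 7, 7, 16 and 6 genes. With the trend removed, Pfkp, Ldhb and Vhl were higher and Arnt, Epas1 and Bnip3l lower, Bnip3l with a log2 fold change of −0.38 (adjusted p = 0.0360).

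**Figure D5:**
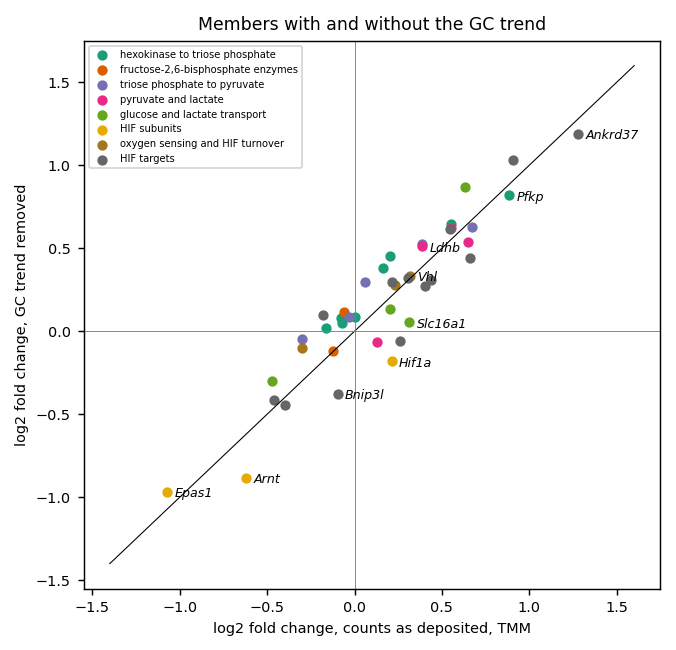
Log2 fold change of each of the 42 members on the counts as deposited (horizontal axis) and after the trend with GC content was removed (vertical axis), coloured by role, with the line where both are equal. Arnt moves from −0.62 to −0.88 and stays with Epas1 at the low end, Hif1a crosses from 0.21 to −0.18, and Ankrd37 stays at the high end.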

How the data were processed

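RNA from 7 mouse G3 MBs (3 controls and 4 labelled WDR11OE) was measured by RNA-seq. The authors deposited raw counts per gene, which they made with HT-seq and GENCODE after StrongArm had aligned the reads to NCBIM37.67. The submitters' processing notes name CASAVA 1.7, STAR, BWA and HTSeq. The labels name a TruSeq RNA kit and the study's methods stranded total RNA, and the strand setting of the counting is not given in the sources used here. Groups follow the labels' treatment field, and replicate numbers are in accession order and name tumors only. Members and gene lists were chosen with earlier results of these data known.

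In R 4.3.3, genes were kept by filterByExpr of edgeR 4.0.16, scaled by TMM and fitted with the group as the only term. The quasi-likelihood test was two-sided, and its p-values were adjusted by Benjamini-Hochberg over all 17389 genes. A call is an adjusted p under 0.05, and a 2-fold call also requires an absolute log2 fold change of at least 1 and a mean log2 CPM above 0. The standard error is the log2 fold change divided by the root of F. Log2 CPM uses a prior count of 2, and ratios were compared by two-sided exact permutation over 35 splits. The typical biological coefficient of variation was 34.6%. At 3 counts, the limit that a count of 0 allows, a gene lies between 0.0329 and 0.0924 CPM, which covers counting error only. RPKM was computed from the counts and the exon length in GENCODE vM1, which matched 97.1% of rows. Alternatives were limma 3.58.1 with voom, DESeq2 1.42.0, other scalings and filters, GC or length trends as offsets, and leaving out each tumor. Summing WDR11OE replicates 1 and 2, whose titles share a number, was chosen after seeing the data. On simulated data of 17174 genes with 200 changed at a log2 size of 1, edgeR recovered 36% of them and 5.26% of its calls were false. Replicate libraries of a group differed beyond sampling noise. Every member was named with its log2 fold change, and values per tumor were given for called members whose groups do not overlap and for Hif1a, Gapdh and Ldha. Of the wider pathway, called genes of at least 2-fold were named, except for a result not reported here. Promoters are RefSeq's on GRCm38.p6, another build than that of the counts, and were matched by symbol. Protein sequences were not used here.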

Additional observations from a re-analysis of the deposited data

How the results depend on the processing

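Of the counts in the report, members higher (4) became 2 with limma-voom, 2 with RLE scaling, 1 without a filter and 2 with WDR11OE replicates 1 and 2 summed, and ran from 0 to 10 when single tumors were left out. Members lower (2) ran from 1 to 4 with single tumors left out. Over all genes tested, those higher ran from 1560 to 2986 and those lower from 2011 to 2868 in the same fits. Members changed at least 2-fold (1) became 2 with DESeq2, 0 with the GC trend removed and 2 with the length trend removed, and ran from 0 to 3 with single tumors left out. Wider pathway genes higher (22) became 13 with the GC trend removed and 11 with the 2 replicates summed, and those lower (15) became 8 with them summed. With single tumors left out, these ran from 11 to 25 and from 7 to 14. Those higher were 11 without WDR11OE replicate 1 or 2 and 14 without control replicate 2, and those lower 9 without control replicate 1 or 2 and 7 without WDR11OE replicate 1. The cause was not tested, although leaving out or summing tumors leaves fewer samples.

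Members whose log2 fold change took the other sign had values of at most 0.26 in size in the report, and none was called with the other sign. Hk2 was at −0.037 with DESeq2 and with RLE scaling, −0.013 with library size scaling, −0.046 without a filter, −0.0080 with a filter of 1 CPM in 3 tumors and −0.075 with replicates 1 and 2 summed. Pgam1 was at 2e-04 with upper quartile scaling. With the GC trend removed, Hk1 was at 0.021, Gpi1 at 0.047, Pfkm at 0.081, Pfkfb4 at 0.12, Pgam1 at 0.085, Pdk3 at −0.067, Ddit4 at 0.098, Hif1a at −0.18 and Ero1l at −0.058. With the length trend removed, Pfkfb3 was at 0.027 and Pkm2 at −0.023, and Pkm2 was at −0.073 with replicates 1 and 2 summed. With single tumors left out, Hk2 ran from −0.15 to 0.17, Gpi1 from −0.25 to 0.025, Pfkfb3 from −0.35 to 0.29, Pfkfb4 from −0.17 to 0.12, Aldoa from −0.042 to 0.29, Pgam1 from −0.23 to 0.087, Pkm2 from −0.15 to 0.21, Egln3 from −0.16 to 0.63 and Ddit4 from −0.47 to 0.051. The log2 ratio of Pfkfb4 to Pfkfb3 differed by −0.058 with the length trend removed and by −0.25 to 0.26 with single tumors left out, and that of Ldhb to Ldha by −0.38 to 0.045. The ratio of Slc2a3 to Slc2a1 differed by 0.87 with the length trend removed, at the smallest exact permutation p that 35 splits give, 0.0286.

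Besides these 39 sign changes, 841 values of single genes kept their direction and side of the threshold, 37 lost a call and 17 gained one. Ldhb lost its call in 10 of 17 alternatives and Hif1a in 12 of 17 with a sign change in another. No paired analysis was possible because replicate numbers were given in accession order and the labels link no control to a WDR11OE tumor. Depth limits Car9 most, at 0.230 to 2.35 CPM.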
